A study of Mus musculus with 2 samples.

Results

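The cells described here were mesenchymal pancreatic tumour cells of a CD9hi-sorted single-cell library that carried high levels of Tnfaip6 RNA. Members were chosen by CPM, the unique molecular identifiers (UMIs) of a gene per 1000000 UMIs of the barcode. Each member had 500 or more genes and 1000 or more UMIs, with no more than 20% of them mitochondrial. It also had Tnfaip6 at 300 CPM or more, Vim at 2000 CPM or more, Epcam under 1000 CPM, Malat1 at 1000 CPM or more, at most 1 Prrx1 UMI, and Mrpl13, Derl1 and Ndufb9 together under 2000 CPM. These cuts left 496 members among 5092 CD9hi barcodes of adequate quality and 7642 such barcodes in both libraries. The comparator was 1112 CD9hi barcodes that met the same cuts but had Tnfaip6 under 100 CPM, and 210 barcodes lay between the levels.

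The study sequenced single cells of mouse pancreatic ductal adenocarcinoma, with 1 whole-tumour library and a second library of live cells that were sorted as high in CD9, a surface tetraspanin. All cells came from the KPFRR model, in which Flp recombinase is driven by the Pdx1 promoter of the pancreatic lineage (Pdx1-Flp). Its other alleles included Trp53frt/frt, which Flp deletes, Rosa26FSF-creER and the Rosa26mTmG reporter. The comparator cells shared the whole genotype with the members. Age, sex, strain and the number of animals were not given in the sources used here. With 1 library per group, no difference below was tested between animals, and each interval in this text covers counting error only.

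Tnfaip6 encodes TSG-6, a secreted protein that binds hyaluronan and moves heavy chains of inter-alpha-inhibitor onto it, which crosslinks the hyaluronan coat around cells. It is known as a gene induced by inflammatory cytokines and growth factors in mesenchymal cells. In pancreatic cancer, tumour cells that undergo epithelial-mesenchymal transition lose cell-cell contacts, gain the intermediate filament vimentin (Vim) and make matrix of their own. The other genes that mark these cells encode the ecto-enzyme CD73 that forms adenosine outside the cell (Nt5e), the parathyroid hormone-related protein (Pthlh) and a chain of the fibrillar collagen V (Col5a3).

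The promoters of the 4 marker genes other than Vim are shown because these genes were given as marks of the cells; of the 4, Tnfaip6 alone was used by the cuts. Each sequence runs from 250 bases before to 50 bases after the RefSeq transcription start (GRCm38.p6). Capitals mark matches on either strand to the AP-1 motif TGANTCA and the TEAD motif GGAATG; the NF-kB motif (GGGA, any base, then TTTCC) was also searched and is in none of the 4. Tnfaip6 lies at chr2:52037863-52038162 on the plus strand, Nt5e at chr9:88327359-88327658 on the plus strand, Pthlh at chr6:147263964-147264263 on the minus strand, and Col5a3 at chr9:20815018-20815317 on the minus strand.
Tnfaip6: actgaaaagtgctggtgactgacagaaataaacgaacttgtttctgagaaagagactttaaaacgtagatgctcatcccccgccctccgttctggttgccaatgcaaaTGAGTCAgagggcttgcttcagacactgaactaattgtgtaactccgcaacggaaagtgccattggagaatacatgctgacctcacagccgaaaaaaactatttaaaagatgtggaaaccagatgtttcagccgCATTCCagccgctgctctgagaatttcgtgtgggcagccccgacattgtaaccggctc
Nt5e: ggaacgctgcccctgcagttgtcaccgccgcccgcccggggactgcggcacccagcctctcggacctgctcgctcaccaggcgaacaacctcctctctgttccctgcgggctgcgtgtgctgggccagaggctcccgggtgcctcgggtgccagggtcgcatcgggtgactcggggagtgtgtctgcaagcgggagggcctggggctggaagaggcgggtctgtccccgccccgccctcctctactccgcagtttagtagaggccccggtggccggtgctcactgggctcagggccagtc
Pthlh: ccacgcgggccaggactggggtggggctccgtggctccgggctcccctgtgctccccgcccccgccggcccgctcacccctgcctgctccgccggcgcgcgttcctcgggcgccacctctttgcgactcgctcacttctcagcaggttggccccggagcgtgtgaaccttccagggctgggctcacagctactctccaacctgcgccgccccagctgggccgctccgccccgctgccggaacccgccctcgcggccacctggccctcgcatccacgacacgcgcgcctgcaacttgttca
Col5a3: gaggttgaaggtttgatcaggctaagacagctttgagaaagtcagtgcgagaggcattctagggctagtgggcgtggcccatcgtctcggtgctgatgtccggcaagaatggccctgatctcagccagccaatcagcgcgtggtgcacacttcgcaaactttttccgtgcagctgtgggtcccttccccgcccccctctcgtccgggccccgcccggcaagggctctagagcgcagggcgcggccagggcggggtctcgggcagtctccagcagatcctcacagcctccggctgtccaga
The Tnfaip6 promoter held 1 AP-1 match that starts at base -142 from the start site and 1 TEAD match, on the other strand, at base -8. The other 3 promoters held no match to these letters in this window. Over 32851 RefSeq promoters of the same length, 7.81% held the AP-1 letters, 14.7% the TEAD letters and 0.411% the NF-kB letters. Among 382 promoters of 298 genes that were at least 1.5-fold higher in the members, these shares were 9.69%, 10.2% and 1.83%.

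The CD9hi library held 5500 barcodes and 120451299 UMIs, and the whole-tumour library 3082 barcodes and 48287984 UMIs. Median depth was 21420.5 UMIs and 4596 genes in the members, and 22595 UMIs and 4675 genes in the comparator. The median mitochondrial share was 2.95% and 3.13%. Ribosomal protein genes, matched by symbol, took a median of 11.8% of UMIs in the members and 15.4% in the comparator. The part of that shift in the ratios below was not tested. High doublet scores marked 14 members and 41 comparator barcodes. The libraries shared 2 barcode sequences, and 0 of the members were among them. Trp53 RNA was counted at 194 CPM in the members and 224 CPM in the comparator; no source used here says whether the counted 3′ end lies in the deleted part. The added reporter sequences gave 0 GFP UMIs in both libraries and 0 TdTomato UMIs in the members, so neither could be used to mark tumour cells. The study describes the sequenced live cells as GFP+, which these 0 counts do not bear out at the RNA level, and the tumour origin of the members was not checked by the reporter.

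Markers of several cell types bear on the name of these cells. Keratins of ductal epithelium were present, with Krt18 at 2718 CPM in the members and 3217 CPM in the comparator, and Krt8 at 1319 and 1452 CPM. Sox9, a ductal transcription factor, stood at 796 and 601 CPM. The 9 ductal markers summed to 5446 CPM in the members and 5974 CPM in the comparator. Of 12 fibroblast markers, 4 were at 0 in the members (Lum, Pdgfrb, Dpt and C7) and Pdgfra was at 0.652 CPM. Their sum was 92.5 CPM against 43.0 CPM in the comparator, of which Col1a1 gave 52.0 and 13.8 CPM. Col3a1 was at 12.2 and 10.7 CPM and Col1a2 at 5.31 and 3.97 CPM, and the median member held 0 CPM of the 12 fibroblast markers together. Dcn was at 14.5 and 5.10 CPM and Thy1 at 1.77 and 0.818 CPM, higher in the members. Pdpn was lower in them at 5.96 and 7.01 CPM, as was Pdgfra, at 0.857 CPM in the comparator. The members thus carried Vim and ductal keratins, while the fibroblast receptors Pdgfra and Pdgfrb were at or near 0. The cuts required Vim and allowed at most 1 Prrx1 UMI, and whether the Prrx1 cut also lowered fibroblast markers was not tested. Macrophage markers summed to 12.5 CPM in the members and 144 CPM in the comparator. These sums rest on few barcodes: the upper quartile was 0 CPM in both groups, and the highest barcodes held 41705 and 53094 CPM. Clear markers of a myeloid, endothelial, islet, fibroblast or acinar cell were carried by 15 of 496 members and 20 of 1112 comparator barcodes, a larger share of the members.

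**Figure D1:**
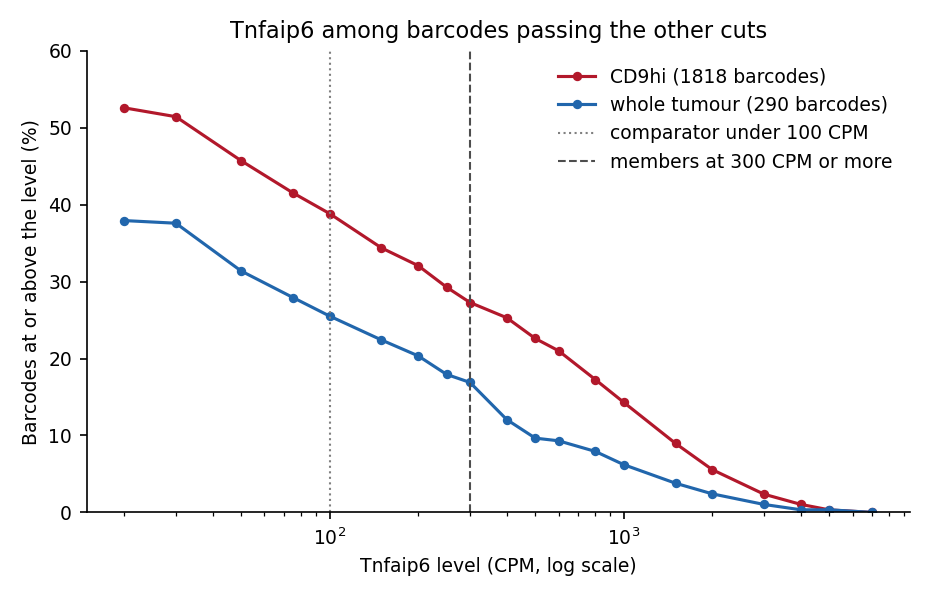
Share of barcodes (y axis, %) at or above each Tnfaip6 level (x axis, CPM, log scale) among barcodes that passed every cut but the Tnfaip6 cut, in the CD9hi library (red) and the whole tumour (blue); vertical lines mark the levels of 100 and 300 CPM. The curves fall without a step at 300 CPM, where they pass through 27.3% and 16.9%.

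The plot of Tnfaip6 levels shows barcodes on both sides of the 300 CPM cut. The bins held 210 barcodes at 100 to under 300 CPM, 114 at 300 to under 600 CPM and 382 at 600 CPM or more. A cumulative curve cannot tell a range of levels from a separate class, and whether the members form such a class was not tested. Members made up 9.74% of the CD9hi barcodes of adequate quality (exact 95% interval 8.94% to 10.6%) and 27.3% of the 1818 that passed the other cuts (25.2% to 29.4%). The same cuts found 49 of 2550 whole-tumour barcodes (1.92%), or 16.9% of the 290 that passed the other cuts. Of 709 CD9hi barcodes at or over 300 CPM of Tnfaip6, 123 failed the Epcam cut, 69 the Prrx1 cut and 27 the Vim cut. Within the members Tnfaip6 had a median of 1046 CPM, with quartiles at 635 and 1770 CPM and a maximum of 6951 CPM. Just inside the cut, 20 barcodes of 300 to under 350 CPM had a median of 7 Tnfaip6 UMIs, and just outside it 36 barcodes of 250 to under 300 CPM had 6. Nt5e was at 424 CPM just inside and 338 CPM just outside, and Pthlh at 307 and 147 CPM.

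The marker genes that the cuts did not use were higher in the members. Nt5e stood at 442 CPM in the members and 243 CPM in the comparator, a log2 ratio of 0.86 (0.81 to 0.92). Pthlh was at 246 and 145 CPM, a log2 ratio of 0.77 (0.69 to 0.84). Col5a3 was at 126 and 40.2 CPM, a log2 ratio of 1.64 (1.52 to 1.76). These genes were named as markers from the same cells, so their ratios in this library are a description. In the whole tumour, which the selection did not use, the 49 Tnfaip6-high barcodes had Nt5e at 428 CPM and the 216 low ones at 193 CPM, with Pthlh at 330 and 185 CPM and Col5a3 at 125 and 18.2 CPM. All 3 were thus higher in the Tnfaip6-high barcodes of both libraries. Vim, which the cuts used, was at 6723 CPM in the members and 5281 CPM in the comparator.

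Single cells varied widely. Nt5e had a median of 337 CPM among members with quartiles at 134 and 702 CPM, and 149 CPM among comparator barcodes with quartiles at 40.1 and 357 CPM. With each barcode thinned to 5000 UMIs, which left out 10 members and 22 comparator barcodes, 72.2% of members and 52.5% of comparator barcodes held an Nt5e UMI (91.1% and 78.8% before thinning). Barcodes of other cell types give a background for such shares. Of acinar-type barcodes of the whole tumour, 2.63% held an Nt5e UMI at that depth, at a median unthinned depth of 18041 UMIs. Whether these UMIs came from free RNA or from the cells themselves was not tested. In the CD9hi library itself 22 myeloid-type barcodes could be thinned (median unthinned depth of 27 barcodes 14099 UMIs), and 4.55% of them held an Nt5e UMI, with an exact 95% interval of 0.115% to 22.8%. Pthlh was found in 52.1% and 38.0% after thinning (acinar type 1.91%, myeloid type 4.55%), and Col5a3 in 31.1% and 13.5% (acinar type 0.478%). No myeloid-type barcode held a Col5a3 UMI after thinning (0 of 22, interval up to 15.4%). Members and comparator overlapped in all 3 genes, and some members carried none of their UMIs.

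**Figure D2:**
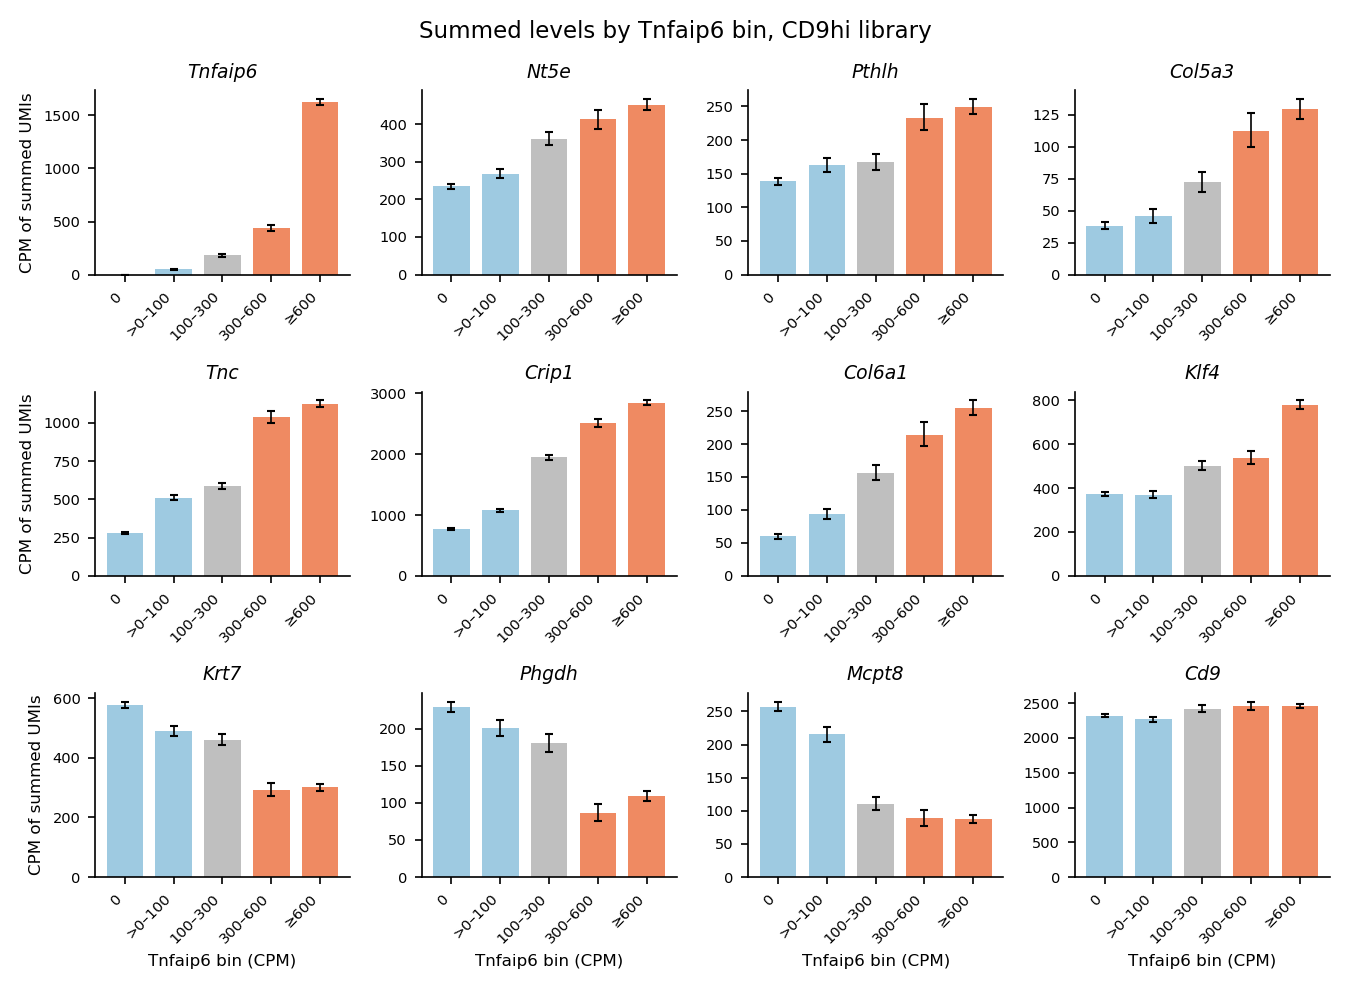
Summed level (y axis, CPM, each panel with its own scale from 0) of 12 genes in 5 bins of Tnfaip6 (x axis, CPM) among the 1818 CD9hi barcodes that passed the other cuts; blue bars are the comparator bins, grey the barcodes between, orange the member bins, and error bars are exact 95% counting intervals. Nt5e, Crip1 and Col6a1 are higher in each bin than in the one before, whereas Cd9 lies between 2269 and 2458 CPM in all bins.

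The levels by Tnfaip6 bin show how the marker genes followed Tnfaip6. Nt5e went from 234 CPM at 0 Tnfaip6 UMIs through 361 CPM at 100 to under 300 CPM of Tnfaip6 to 451 CPM at 600 CPM or more. Col5a3 went from 38.4 through 72.1 to 129 CPM over the same bins. Tnc, the matrix protein tenascin C, was at 278 CPM at 0 UMIs, 586 CPM in the middle bin and 1123 CPM in the highest bin. Krt7, a keratin of simple ducts, went the other way from 577 to 301 CPM, and Mcpt8, annotated as a mast cell protease, from 257 to 87.2 CPM. The barcodes between the 2 levels held intermediate values of these 5 genes. CD9 RNA itself was at 2458 CPM in the members and 2308 CPM in the comparator, within 1.5-fold.

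Of 9237 genes with a mean of at least 5 CPM in members and comparator, 425 (4.6%) were at least 1.5-fold higher in the members and 226 (2.45%) at least 1.5-fold lower, 7.05% in all, leaving out the 8 genes used by the cuts. The median log2 ratio of all measured genes was 0.02. Among the 2969 genes of at least 50 CPM, 98 (3.3%) were higher and 20 (0.674%) lower. One barcode held over 20% of the UMIs in 25 of the 425 genes and in 21 of the 226. In the whole-tumour library 381 of the 425 higher genes also had a ratio above 0, and 52 of the 226 lower genes did, beside 57.4% of all measured genes. The 49 Tnfaip6-high barcodes there were fewer than the 50 set as the minimum for counting genes past the fold, so only ratios are given.

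The genes of at least 50 CPM with the highest ratios had varied roles. Tppp3, which promotes the assembly of tubulin, was at 113 CPM in the members and 20.3 CPM in the comparator (log2 ratio 2.47, 2.32 to 2.62). Fstl1, a secreted follistatin-like glycoprotein, was at 126 and 29.5 CPM (2.09, 1.96 to 2.22). Crip1, a small LIM-domain protein, was among the most abundant of them at 2773 and 849 CPM (1.71, 1.68 to 1.73), and its relative Crip2 was at 427 and 168 CPM. Sdc2, a heparan sulfate proteoglycan of the cell surface, was at 176 and 58.9 CPM. Dpysl3, a cytoskeletal regulator known from neurons, was at 150 and 56.3 CPM, and Crabp2, which carries retinoic acid, at 103 and 42.3 CPM. Rif1, a factor in DNA replication timing and repair, was at 77.0 and 32.9 CPM. Of the 15 genes with the highest ratios at this level, 13 were also above 0 in the whole tumour; the exceptions were Timp3, with a log2 ratio of -0.09, and Ctrb1. The acinar enzyme Ctrb1 had 99.8% of its members' UMIs in 1 barcode, and its log2 ratio of 4.70 became -0.65 without the top barcode of each group.

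**Figure D3:**
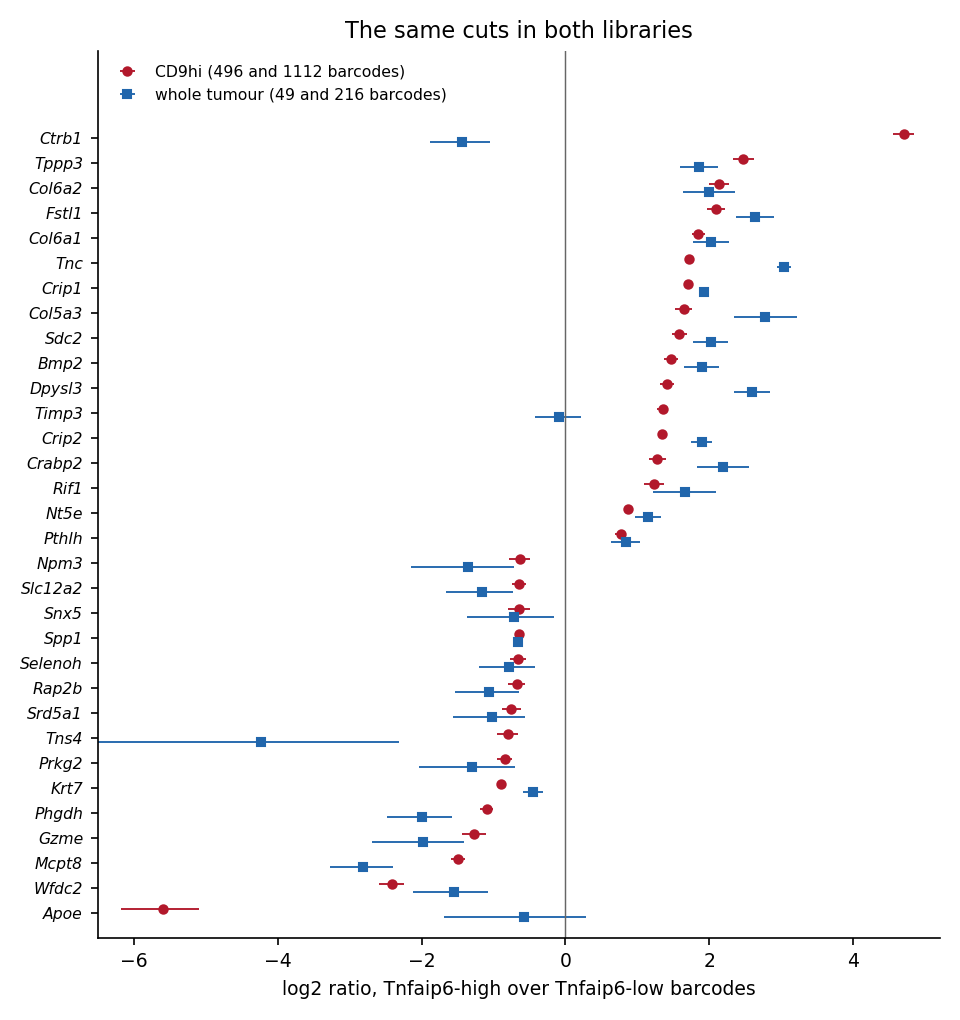
Log2 ratio (x axis) of Tnfaip6-high over Tnfaip6-low barcodes for the marker genes Nt5e, Pthlh and Col5a3 and for the genes of at least 50 CPM with the 15 highest and 15 lowest ratios, in the CD9hi library (red circles) and the whole tumour (blue squares), with exact 95% counting intervals; the interval of Tns4 runs past the left edge. Ctrb1 and Timp3 are the genes whose ratios have opposite signs in the 2 libraries.

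The genes with the lowest ratios at this level were also of varied roles. Wfdc2, a secreted protease inhibitor of epithelia, was at 27.4 CPM in the members and 145 CPM in the comparator (log2 ratio -2.41, -2.59 to -2.24). Krt7 was at 299 and 555 CPM (-0.89). Mcpt8 and Gzme, granule proteases of haematopoietic cells, were at 87.6 and 247 CPM and at 30.9 and 74.4 CPM, and counts of such multigene families can be split between near copies. Phgdh, the first enzyme of serine synthesis, was at 104 and 222 CPM (-1.10). Spp1, osteopontin, was at 6063 and 9477 CPM (-0.64). The others were Prkg2 (-0.84), Tns4 (-0.80), Srd5a1 (-0.75), Rap2b (-0.68), Selenoh (-0.66), Snx5 (-0.64), Slc12a2 (-0.64) and Npm3 (-0.63) on the log2 scale. All 15 of these genes were also below 0 in the whole tumour. Apoe, at 2.79 and 136 CPM, rested on a few barcodes: its log2 ratio of -5.59 became -1.04 without barcodes that carried markers of another cell type.

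Below 50 CPM the 10 highest ratios belonged to pancreatic secretory genes such as Clps, Rnase1 and Cpa1, each with at least 98.6% of the members' UMIs in 1 barcode. The 10 lowest belonged to islet and myeloid genes such as Iapp, Chgb, Lyz2 and C1qb. Of the UMIs of Iapp and Chgb in the comparator, 99.3% and 98.8% were in 1 barcode. These ratios therefore rest on 1 barcode or a few barcodes each.

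The gene lists are given by role, beginning with secreted signals. Each count of higher and lower genes below is to be read beside the 4.6% and 2.45% of all measured genes. Of 12 measured genes of the PTHrP, activin and BMP list, 4 were at least 1.5-fold higher, 1 lower, and the median log2 ratio was 0.51 beside 0.02 for all genes. Bmp2, a bone morphogenetic protein, was at 164 CPM in the members and 59.3 CPM in the comparator (1.47, 1.37 to 1.57), and at 269 and 72.6 CPM in the whole tumour. Inhba, the activin A subunit, was at 517 and 238 CPM (1.12), and Inhbb at 7.82 and 4.83 CPM (0.70). Fst, the follistatin that binds activins, was the lower one at 29.6 and 44.5 CPM (-0.59). The PTHrP receptor Pth1r was at 1.21 and 0.545 CPM, under the measured range.

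Inflammatory mediators moved in both directions. Of 21 measured cytokines and chemokines, 4 were higher and 5 lower, with a median log2 ratio of -0.01. Il11, a cytokine of the IL-6 family, was at 36.5 and 16.2 CPM (log2 ratio 1.17), Csf1 at 14.3 and 6.74 CPM, Ccl7 at 12.01 and 4.13 CPM, and Cxcl3 at 16.8 and 9.86 CPM. Tnf was lower at 17.9 and 30.9 CPM (-0.79), Cxcl10 at 20.01 and 34.1 CPM, and Cxcl5 at 7.73 and 14.96 CPM. Il1b, at 0.465 and 14.1 CPM, had 81.8% of its comparator UMIs in 1 barcode. In the prostaglandin pathway, 2 of 9 measured genes were higher and 1 lower. The inducible cyclooxygenase Ptgs2 was at 403 and 186 CPM (1.12) and the phospholipase Pla2g4a, which releases its substrate, at 85.9 and 53.5 CPM (0.68), whereas the prostaglandin E synthase Ptges was at 15.2 and 33.9 CPM (-1.16).

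NF-kB response genes were counted as a list of their own. Of 19 measured NF-kB response genes, 0 were at least 1.5-fold higher and 2 were lower (Icam1, an adhesion molecule, at 14.7 and 26.6 CPM, and Tnfaip2 at 27.9 and 45.9 CPM), with a median log2 ratio of -0.01. The inhibitor Nfkbia was at 544 and 525 CPM and Tnfaip3, a feedback deubiquitinase, at 35.2 and 36.2 CPM. With 4.6% of all measured genes higher, a count of 0 among 19 is near the background.

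Genes of extracellular matrix formed the list with the most higher members. Among 34 measured collagens and matrix genes 21 were at least 1.5-fold higher, while 1 (Spp1) was lower; the list had a median log2 ratio of 0.87 beside 0.02 for all genes. Both measured collagen VI chains were among them, Col6a1 at 246 CPM in the members and 68.3 CPM in the comparator and Col6a2 at 108 and 24.6 CPM. All 3 chains of collagen V were too: beside Col5a3, Col5a1 was at 29.7 and 12.5 CPM and Col5a2 at 29.7 and 8.30 CPM. Tnc was at 1104 and 336 CPM (1.71, 1.67 to 1.75) and Fn1, fibronectin, at 4855 and 2426 CPM (1.00, 0.98 to 1.02). Sparc, a collagen-binding matricellular protein, was at 279 and 121 CPM, and Ltbp2, of the microfibrils, at 34.9 and 8.88 CPM. The enzymes that crosslink collagen included Lox at 20.8 and 6.04 CPM and Loxl2 at 45.1 and 17.5 CPM. Collagens of basement membrane were within 1.5-fold: Col4a1 was at 149 and 114 CPM and Col18a1 at 599 and 653 CPM.

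Some matrix genes were less even. In the whole tumour 27 of the 34 had a ratio above 0, with a median of 1.15, and Tnc stood at 2535 CPM in Tnfaip6-high and 310 CPM in Tnfaip6-low barcodes. Col1a1, at 52.0 and 13.8 CPM in the CD9hi library, was at 28.0 and 67.0 CPM in the whole tumour, and Bgn, at 58.8 and 14.5 CPM, was at 50.2 and 60.6 CPM there. Bgn UMIs were found in 13.1% of the members. Summed over all 41 listed genes, 62.1% of members exceeded the comparator's median and 34.3% its upper quartile, so the sum, to which Spp1 contributes most, separated the groups little.

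**Figure D4:**
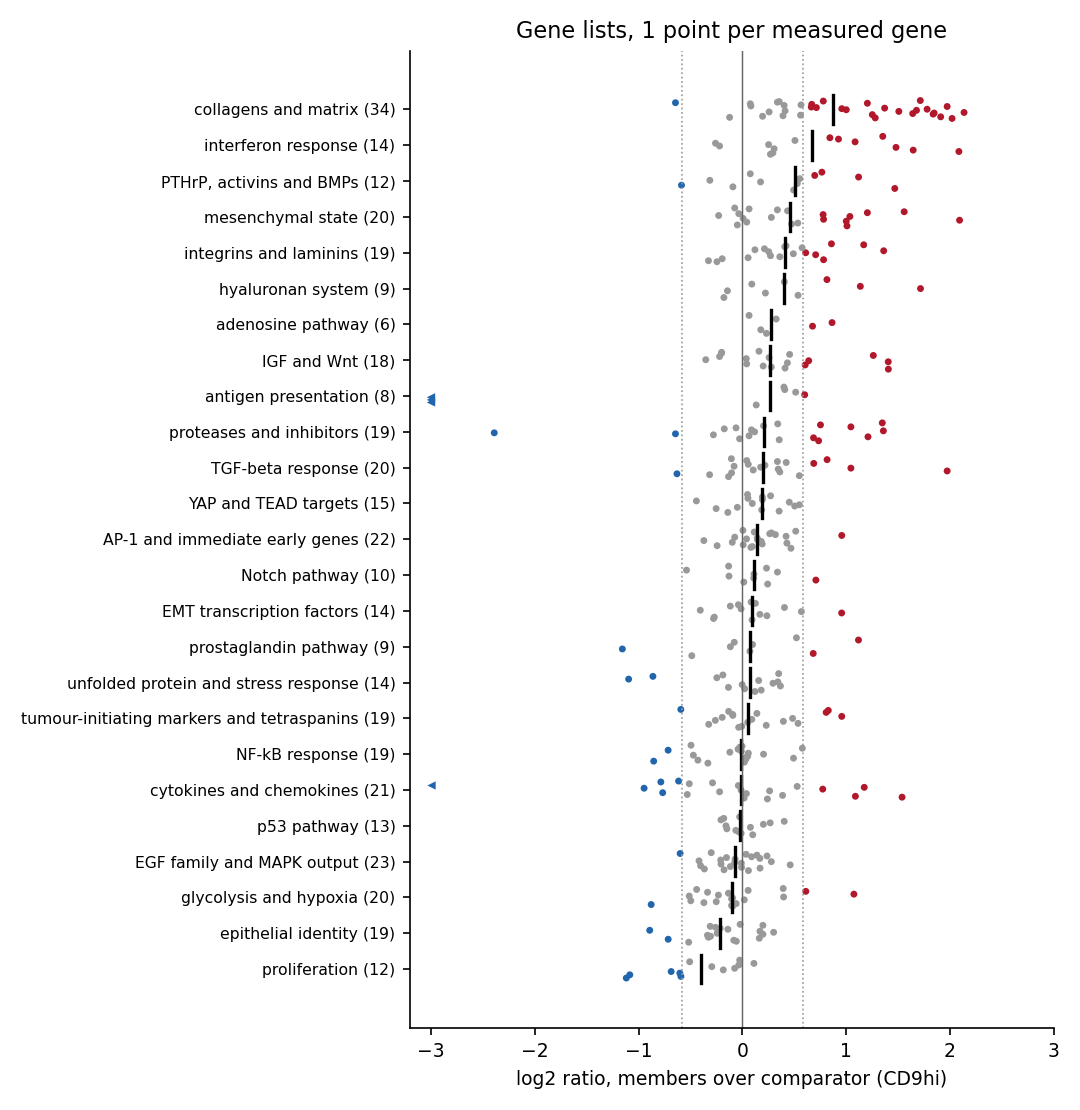
Log2 ratio (x axis) of members over comparator in the CD9hi library for the measured genes of 25 lists (y axis, with the number of measured genes), 1 point per gene, in red at 1.5-fold or more higher, in blue at 1.5-fold or more lower and in grey otherwise; black bars are list medians, dotted lines the 1.5-fold limits, and triangles stand for 4 genes past the left edge. Collagens and matrix have the highest median at 0.87 and proliferation the lowest at -0.40.

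The hyaluronan system, on which TSG-6 acts, held higher genes of hyaluronan synthesis and binding. Of 9 measured genes 3 were at least 1.5-fold higher and 0 lower, with a median log2 ratio of 0.40. The hyaluronan synthase Has2 was at 45.05 and 20.5 CPM (1.14, 0.96 to 1.32), and Gfpt2, which starts the pathway to its sugar precursor, at 46.0 and 14.0 CPM (1.72, 1.52 to 1.92). Vcan, the hyaluronan-binding proteoglycan versican, was at 168 and 95.5 CPM (0.81). The receptor Cd44 was at 1299 and 895 CPM (0.54), short of 1.5-fold. The inter-alpha-inhibitor heavy chains that TSG-6 transfers had little RNA: Itih1, Itih3 and Itih4 were at 0 UMIs in the members, and Itih2 and Itih5 at 0.465 and 0.931 CPM. In the whole tumour Has2 was at 63.0 and 12.3 CPM and Gfpt2 at 80.5 and 5.69 CPM, higher in the Tnfaip6-high barcodes as well. The list's sum exceeded the comparator's median in 85.1% of members, the highest such share of the 25 lists. Cd44 contributes most to that sum, with a member median of 1241 CPM beside 1854 CPM for the list. The share therefore says little about Has2 and Gfpt2.

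The adenosine pathway added 2 higher genes of 6 measured, with a median log2 ratio of 0.28. Beside Nt5e, these were Enpp1, an ectonucleotidase, at 62.5 and 39.2 CPM (0.68). The enzymes and carrier that clear adenosine were within 1.5-fold, with Ada at 12.2 and 10.4 CPM, Adk at 76.5 and 67.7 CPM and the transporter Slc29a1 at 156 and 149 CPM. Adenosine receptor genes were under the measured range, with Adora2a at 2.33 and Adora2b at 0.372 CPM in the members. Entpd1, which makes the AMP that CD73 cleaves, was at 0.838 CPM.

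Proteases and their inhibitors held 7 higher and 2 lower genes of 19 measured, with a median log2 ratio of 0.20. The higher ones included the inhibitors Timp3 at 255 and 100 CPM and Timp1 at 2249 and 1335 CPM, and the protease Adamts5 at 25.8 and 11.1 CPM. The metalloprotease Mmp19 was also higher, at 6.02 CPM with 0 Tnfaip6 UMIs and 22.1 CPM at 600 CPM or more of Tnfaip6. Mmp13, a collagenase, was lower at 2.89 and 15.3 CPM (-2.39), and Mmp10 at 9.59 and 15.04 CPM.

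Matrix receptors and laminins were counted together. Of 19 measured integrins and laminins 6 were higher and 0 lower, with a median log2 ratio of 0.41. Itga5, the fibronectin receptor subunit, was at 130 and 75.7 CPM (0.78). Lama4 and Nid1, of vascular and basement membrane matrix, were at 9.21 and 3.58 CPM and at 63.2 and 34.9 CPM. Integrins of epithelium did not pass 1.5-fold, with Itga6 at 201 and 230 CPM and Itga3 at 106 and 133 CPM.

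Genes of the mesenchymal state were higher in 8 of 20 measured and lower in 0, with a median log2 ratio of 0.45. Beside Fstl1, Sparc and Fn1 these included Ncam1, an adhesion molecule, at 139 and 67.6 CPM (1.04) and S100a4, a calcium-binding protein of motile cells, at 162 and 94.4 CPM (0.78). Tagln, of smooth muscle and contractile cells, was at 21.6 and 7.32 CPM, but 48.3% of the members' UMIs were in 1 barcode and the log2 ratio of 1.56 became 0.36 without barcodes of other types. Cdh2 (N-cadherin) at 57.7 and 56.1 CPM and S100a6 at 17333 and 17752 CPM were within 1.5-fold. The transcription factors of epithelial-mesenchymal transition showed 1 higher gene of 14 measured, Snai1, at 15.3 and 7.87 CPM (0.96, 0.65 to 1.26), and 0 lower, which is near the 4.6% and 2.45% of all measured genes. Zeb1 was at 45.3 and 41.6 CPM and Twist1 at 90.7 and 93.1 CPM.

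Most epithelial genes stayed within 1.5-fold. None of the 19 measured passed 1.5-fold upward (0) and 2 passed it downward, beside 4.6% and 2.45% of all measured genes. The median log2 ratio was -0.21. In the whole tumour the median was 0.03, with 10 of the 19 above 0. Those past 1.5-fold were Krt7 and Cldn7, a tight junction claudin at 18.1 and 29.8 CPM (-0.71). Cdh1 (E-cadherin) was at 77.6 and 111 CPM (-0.52), and Krt19 was at 157 and 128 CPM. Epcam, which the cuts held under 1000 CPM, was at 355 and 437 CPM.

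Lists of signalling pathways differed in how many of their genes were past 1.5-fold. In the TGF-beta response, 4 of 20 measured genes were higher and 1 was lower, beside 4.6% and 2.45% of all measured genes. The median log2 ratio was 0.20. The higher ones included Ltbp2, the receptor Tgfbr2 at 72.8 and 41.3 CPM (0.82) and the ligand Tgfb2 at 26.0 and 16.1 CPM (0.69); Id2, an inhibitor of basic helix-loop-helix factors, was lower at 132 and 204 CPM. No YAP and TEAD target of 15 measured was past 1.5-fold in either direction, with a median of 0.19. A count of 0 among 15 is near the 7.05% of all measured genes that passed it. Ccn2 was at 331 and 226 CPM. Of 22 AP-1 and immediate early genes only Klf4, a zinc-finger transcription factor, was past 1.5-fold at 725 and 373 CPM (0.96, 0.91 to 1.00), and Fosl1 was at 65.6 and 70.2 CPM. This count is near the 4.6% of all measured genes that were higher. Of 23 EGF family and MAPK output genes 0 were higher and 1 lower, near the 4.6% and 2.45% of all measured genes. The lower one was Spry4, an inhibitor of receptor signalling, at 15.7 and 23.9 CPM. The IGF and Wnt list had 5 of 18 higher and 0 lower, beside the same 4.6% and 2.45%. Igfbp7, a secreted IGF-binding protein, was at 2289 and 1470 CPM (0.64), Wnt11 at 25.9 and 10.8 CPM and Dkk3 at 12.2 and 4.60 CPM.

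Jag1, a Notch ligand named in the title of the study, was at 233 CPM in the members and 143 CPM in the comparator (log2 ratio 0.71, 0.63 to 0.78). It was also higher in the whole tumour, at 199 and 91.5 CPM. It was the only one of 10 measured Notch pathway genes past 1.5-fold, in a list with a median log2 ratio of 0.11. A count of 1 among 10 is near the 7.05% of all measured genes past 1.5-fold. The receptors Notch1 at 22.2 and 20.6 CPM and Notch2 at 46.9 and 37.1 CPM were within 1.5-fold. So was the target Hes1 at 359 and 356 CPM. Among 19 measured tumour-initiating markers and tetraspanins, 3 were higher and 1 lower: Klf4, Tspan6 at 80.4 and 45.3 CPM and Tspan13 at 16.01 and 9.16 CPM, and Tspan8 at 206 and 311 CPM. Cd81, a partner of CD9, was at 815 and 619 CPM, and Cd24a, a surface marker, at 189 and 237 CPM.

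Interferon response genes were higher in 7 of 14 measured and lower in 0, with a median log2 ratio of 0.67. Ifi27 was at 33.8 and 10.8 CPM (1.65), Usp18, a deconjugase of ISG15, at 21.6 and 8.45 CPM and Isg15 itself at 52.8 and 27.8 CPM. Gbp2, an interferon-induced GTPase, was at 24.9 and 5.84 CPM with 36.3% of the members' UMIs in 1 barcode. The list's median was 0.59 within cluster 0 of the clustering described below, 0.04 within cluster 2 and -0.02 within cluster 4. Of 8 measured antigen presentation genes, the class I gene H2-D1 was higher at 208 and 137 CPM (0.60) and the class II genes H2-Aa, H2-Ab1 and Cd74 were lower; without barcodes of other types 5 genes of the list remained measured, with 1 higher and 0 lower.

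Proliferation had the lowest median log2 ratio of the 25 lists. Of 12 measured genes 0 were higher and 5 lower, beside 4.6% and 2.45% of all measured genes, with a median of -0.40. Among the lower ones were Cdk1, the mitotic kinase, at 5.58 and 11.9 CPM (-1.08) and Birc5, survivin, at 4.47 and 9.78 CPM. Both lie near the minimum mean of 5 CPM. Without barcodes of other types 3 were lower, and the median was -0.35 within cluster 0, -0.05 within cluster 2 and 0.22 within cluster 4. Barcodes with at least 2 UMIs of Mki67 and Top2a together were 1.61% of the members and 1.89% of the comparator. Glycolysis and hypoxia genes were higher in 2 of 20 and lower in 1, beside 4.6% and 2.45% of all measured genes. Pfkp, a phosphofructokinase, was at 51.9 and 24.7 CPM and the lactate carrier Slc16a3 at 48.5 and 31.8 CPM. The p53 pathway had 0 of 13 past 1.5-fold, near the background of 7.05% of all measured genes. Cdkn1a, the p53 target p21, was at 255 and 267 CPM and Cdkn2a at 1599 and 1515 CPM. In the unfolded protein and stress list 0 of 14 were higher and 2 lower, beside 4.6% and 2.45% of all measured genes. The lower ones were Phgdh and the cystine carrier Slc7a11, the latter near the minimum at 3.91 and 7.17 CPM. Without barcodes of other types 1 gene of that list was lower.

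Clustering placed the members in several groups of cells and not in one. Leiden clustering of the 5092 CD9hi barcodes, made without the 8 genes of the cuts, gave 15 clusters, and members lay in 12 of them. Cluster 0 held 142 members, cluster 2 held 145 and cluster 4 held 136, together 85.3% of all members and 69.5% of the comparator. Members were 20.2% of the barcodes passing the other cuts in cluster 0 (17.3% to 23.3%), 35.3% in cluster 2 (30.7% to 40.1%) and 54.6% in cluster 4 (48.2% to 60.9%). The clusters were built from the same cells and genes, so these shares carry no test. Ribosomal protein genes took a median of 9.51% of UMIs in members of cluster 4 and 12.96% in members of cluster 0.

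**Figure D5:**
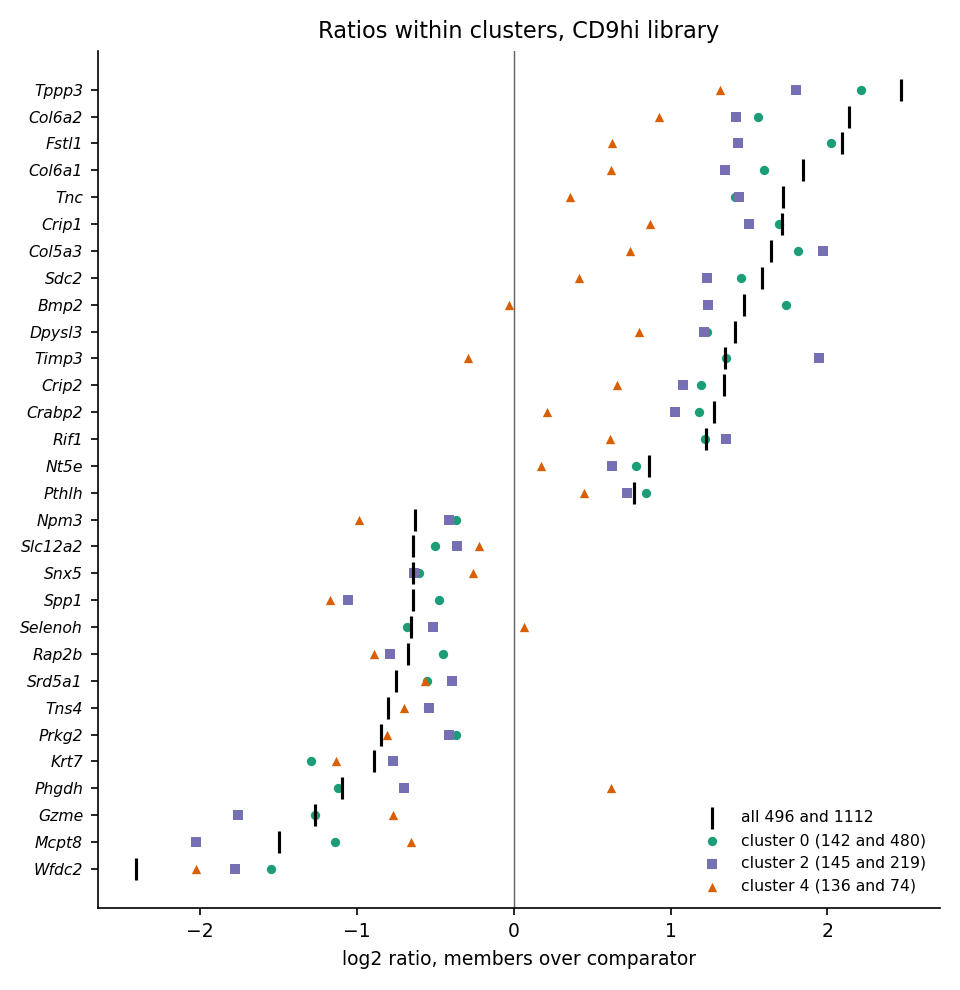
Log2 ratio (x axis) of members over comparator in the CD9hi library for the marker genes and for the genes of at least 50 CPM with the highest and lowest ratios, without Ctrb1 and Apoe, over all barcodes (black bars) and within clusters 0, 2 and 4 (coloured symbols, with the number of members and comparator barcodes in the key). In cluster 4 Timp3 and Bmp2 are below 0 and Phgdh and Selenoh above 0, whereas the ratios within clusters 0 and 2 keep the sign of the whole.

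The ratios were also taken within clusters. The clusters were built from the same cells, and the genes below were not left out of the clustering. A smaller ratio within a cluster can follow from that alone. Tnc had a log2 ratio of 1.41 in cluster 0, 1.44 in cluster 2 and 0.36 in cluster 4, beside 1.71 over all. Col6a1 was at 1.596, 1.35 and 0.62, and Fstl1 at 2.02, 1.43 and 0.63 on the same scale. Nt5e was at 0.78, 0.63 and 0.17, Pthlh at 0.84, 0.73 and 0.45 and Col5a3 at 1.81, 1.97 and 0.74. Bmp2 at 1.73, 1.24 and -0.03, and Timp3 at 1.35, 1.94 and -0.29, were not higher in the members of cluster 4. Inhba (-0.029), Inhbb (-0.29), Tgfb2 (-0.61), Il11 (-0.12) and Itga5 (-0.051) were also below 0 in cluster 4, Bgn was at -1.75 in cluster 2 and -0.079 in cluster 4, and Ifi27 was at -1.01 in cluster 0. Among the lower genes, Wfdc2 was at -1.55, -1.77 and -2.02, while Phgdh was at -1.12, -0.70 and 0.62. The matrix list had a median of 0.89, 0.54 and 0.28 in the 3 clusters, and the hyaluronan list 0.44, 0.53 and 0.43. Whether the smaller ratios in cluster 4 differ from those in the other clusters was not tested.

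The genes whose levels ran most closely with Tnfaip6 over the 1818 barcodes were Crip1, Crip2, Pdlim1, Tnc, Col6a1, Dpysl3, Fn1, Klf4, Cd44 and Anxa1, by Pearson correlation of log2(CPM + 50) among 2964 genes. Their coefficients ran from 0.43 for Crip1 to 0.33 for Anxa1. The barcodes share 1 library, and depth differs among them. Within the 496 members alone the coefficients of these genes were between 0.05 for Tnc and 0.25 for Klf4. Pdlim1, an actin-associated protein, was at 263 and 138 CPM in members and comparator (log2 ratio 0.93), and Anxa1, a calcium-dependent phospholipid-binding protein, at 1256 and 810 CPM (0.63). The lowest coefficients were those of the ribosomal protein genes Rpl32 (-0.39) and Rpl12 (-0.36).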

How the data were processed

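Single-cell 3′ RNA libraries (Chromium Next GEM chemistry) of live sorted cells were deposited as raw UMI counts per gene and barcode, with no normalization by the authors, per the file headers. Reads were processed with Cell Ranger 7.0.0 against GRCm39 per the submitters' processing notes, whereas the file headers give version 6.1.2; whether intronic reads were counted is not given in the sources used here. Of 55361 features, 1705 that share a symbol were kept apart by identifier, and 3 listed symbols matched no feature. Counting did not resolve near-identical gene copies.

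The members and the gene lists were chosen with earlier results of these data known. UMIs were summed over members and over comparator barcodes of the CD9hi library and divided by the group total (CPM). Log2 ratios had 0.5 counts added to each sum, and their 95% intervals are exact conditional binomial intervals; shares have exact Clopper-Pearson intervals. PCR duplicates are removed by UMIs, but intervals still cover counting error only, and no p-value was computed because each group has 1 library. A gene was measured at a mean of at least 5 CPM and counted as higher or lower at 1.5-fold. Genes named are the markers, the 15 highest and 15 lowest ratios at 50 CPM or more, the 10 highest and 10 lowest between 5 and 50 CPM, up to 4 in each direction per list and the 10 genes most correlated with Tnfaip6; other list members were named for their role after their values were seen. Barcodes with markers of another type had at least 200 CPM of myeloid or endothelial, 1000 CPM of islet or collagen, or 2000 CPM of acinar markers. Doublets were scored with Scrublet in scanpy 1.11.5 and kept, since its automatic threshold marked 1 CD9hi and 14 whole-tumour barcodes; their removal at an assumed rate of 0.8% per 1000 barcodes is an alternative. Clustering used 2000 variable genes, 30 components, 15 neighbours and a resolution of 0.8. The ratio step was checked on simulated Poisson counts with known folds. These counts held no variation between cells beyond depth and counting error, so the check does not cover such variation in the data. Alternatives covered the Tnfaip6 levels, depth, doublets, filters, scaling and the pseudocount, and leaving out cycling barcodes; leaving out barcodes of other types, single clusters and the top barcode of each gene was added after seeing the data. Some alleles and genes are not reported here.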

Additional observations from a re-analysis of the deposited data

Results flagged for a closer look

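For 9 named genes the ratio of Tnfaip6-high to Tnfaip6-low barcodes was at least 1.5-fold in opposite directions in the 2 libraries, with counting intervals on either side of 0. The difference between the libraries was not tested. In log2 ratios, CD9hi first and whole tumour second, Clps was at 6.28 and -1.62, 2210010C04Rik at 5.33 and -1.36, and Cel at 4.90 and -3.98. Ctrb1 was at 4.70 and -1.44, Pnliprp1 at 4.42 and -1.55, and Prss2 at 4.20 and -2.39. Reg1 was at 4.13 and -2.74 and Cpb1 at 3.95 and -1.29. These 8 are secretory genes of the exocrine pancreas, and 1 barcode held at least 98.6% of the members' UMIs of each. The other gene was Col1a1, a chain of collagen I, at 1.91 and -1.23. Its members' UMIs in the CD9hi library were spread over 16.9% of the members with 10.4% in the top barcode. In the whole tumour its log2 ratio was 1.88 without barcodes that carried markers of another cell type.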

How the results depend on the processing

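With 1 library per group no replicate could be left out, and no paired analysis was possible because each group has 1 library. The share of members among CD9hi barcodes was 8.07% with a Tnfaip6 level of 500 CPM, 11.4% with 200 CPM and 11.5% after thinning to 10000 UMIs, which also moved the share of members in clusters 0, 2 and 4 to 79.6%. The counts of higher and lower genes were 98 and 20 at a mean of at least 50 CPM, 4469 and 3716 with no minimum beyond 1 UMI, and 138 and 64 at 2-fold or more. Within cluster 2 alone 375 genes and within cluster 4 alone 642 genes were lower, of which 77 and 65 were among the 226. The other alternatives left both counts within 1.5 times: 378 to 478 higher and 179 to 309 lower genes over all clusters, and 361, 387 and 616 higher genes in clusters 0, 2 and 4 alone. Of 425 higher genes, at least 322 remained higher under each alternative that kept the gene minimum, the fold and all clusters. Fewer remained within single clusters: 191 in cluster 0, 182 in cluster 2 and 134 in cluster 4. In these clusters 1, 4 and 7 of the 425 were instead at least 1.5-fold lower. Counts of genes past the fold were not made for the 49 whole-tumour barcodes. Some log2 ratios of named genes changed sign, and the cause was not tested. With 0 Tnfaip6 UMIs in the comparator the ratios of opposite sign were Ppy (1.05). Without barcodes that carried markers of another cell type the ratios of opposite sign were Cpa1 (-0.11), Ctrb1 (-0.63), Il1b (1.03), Pnliprp1 (-0.11), Ppy (1.09), Prss2 (-0.065) and Reg1 (-1.97). Without the top barcode of each gene the ratios of opposite sign were Cpa1 (-0.12), Ctrb1 (-0.65), Pnliprp1 (-0.12), Ppy (0.63) and Reg1 (-1.98). Within cluster 0 alone the ratios of opposite sign were Cpa1 (-0.079), Ctrb1 (-0.74), Cxcl3 (-0.43), H2-Ab1 (1.14), Iapp (0.95), Ifi27 (-1.01), Prrx1 (0.21), Prss2 (-0.74), Reg1 (-0.53), Slc7a11 (0.90) and Tagln (-0.93). Within cluster 2 alone the ratios of opposite sign were Bgn (-1.75), Birc5 (1.11), Cdk1 (0.056), Ctrb1 (-1.55), Enpp1 (-0.11), Gbp2 (-0.074), Igfbp6 (-1.02), Il1b (1.22), Ptges (0.63), Reg1 (-1.31) and Tagln (-1.75). Within cluster 4 alone the ratios of opposite sign were Bgn (-0.079), Bmp2 (-0.029), Cxcl3 (-0.078), Egln3 (0.78), Fst (0.58), H2-D1 (-0.15), Igfbp6 (-2.28), Il11 (-0.12), Inhba (-0.029), Inhbb (-0.29), Itga5 (-0.051), Mcm3 (0.36), Mmp10 (0.70), Phgdh (0.62), Prss2 (-0.17), Reg1 (-4.79), Selenoh (0.063), Tagln (-0.36), Tgfb2 (-0.61), Timp3 (-0.29) and Tspan6 (-0.040). Among the whole-tumour ratios, those of opposite sign were as follows. At 500 CPM of Tnfaip6 or more they were C1qb (-0.073) and Ccl7 (-2.97). After thinning to 10000 UMIs they were Clps (1.26), Cpa1 (0.39), Ctrb1 (0.19), Gbp2 (-0.092), Igfbp6 (-0.70), Pnliprp1 (0.62), Prss2 (0.73) and Slc7a11 (-0.39). With 5 counts added they were Cd74 (0.26), Mcm3 (0.41) and Tnf (0.0087). Without barcodes that carried markers of another cell type they were Cd74 (0.38), Col1a1 (1.88), Prss2 (0.043) and Reg1 (0.085). Without the top barcode of each gene they were Ccl7 (-1.89) and Col1a1 (1.38). Depth limits genes of a few CPM, whose counting intervals are wide.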

Other observations

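Genes matched by symbol as cytosolic ribosomal protein genes were low in the members by a small amount. The symbol match also takes in kinase genes of the Rps6k family and paralogues, so the counts are not of ribosomal proteins alone. Of 92 measured, 85 had a lower level in the members, with a median log2 ratio of -0.32 and 0 past 1.5-fold in either direction. In the whole tumour 88 of the 92 were lower in the Tnfaip6-high barcodes, with a median of -0.55, and 39 were past 1.5-fold lower. The median share of UMIs in these genes went from 15.5% of UMIs in barcodes with 0 Tnfaip6 UMIs through 13.7% at 100 to under 300 CPM to 11.6% at 600 CPM or more. It was 12.96% in members and 15.4% in comparator barcodes of cluster 0, and 9.51% and 10.4% in cluster 4.

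By chromosome the ratios differed little in the CD9hi library. The median log2 ratio of measured genes there lay between -0.05 for chromosome 6 and 0.07 for chromosomes 15 and 17. Chromosomes were taken from the GENCODE annotation of GRCm38 through gene identifiers. In the whole tumour the medians ranged more widely, from -0.16 for chromosome 6 to 0.21 for chromosome 1. These differences were not tested.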
